A study of Homo sapiens with 4 samples.

Results

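Replication of human chromosomes starts at many sites, and the proteins that prepare and fire these sites are themselves encoded by genes that have to be replicated. The loci described here are those of 7 such genes: ORC1, CDC6, CDT1 and MCM2, which take part in licensing, GMNN, which restrains it, CDC45, which acts at firing, and PCNA, which acts at elongation. They were chosen as a fixed list of genes with their hg19 positions, and every deposited region within 20 kb of a gene was taken. This gave 94 of the 262748 regions in the 3 lists: 31 of 78859 from nascent strands of cells with RepID (WT), 37 of 159667 from nascent strands of knockout cells (KO), and 26 of 24222 from RepID chromatin immunoprecipitation. The furthest WT region taken lay 18.6 kb from its gene (PCNA, score percentile 36.6) and the nearest one left out 22.1 kb (MCM2, percentile 4.36). For KO regions these distances were 19.8 kb (CDT1, percentile 94.8) and 21.0 kb (CDC45, percentile 78.9), and for RepID regions 19.0 kb (CDC6, percentile 21.2) and 20.7 kb (CDT1, percentile 28.5).

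The study asked whether RepID, a protein also named PHIP, is needed for initiation at the origins to which it binds. Nascent strands, the short pieces of new DNA found next to an origin that has just fired, were isolated from unsynchronized HCT116 cells, a colon carcinoma line, either with unaltered RepID or as stable knockout cells made with CRISPR-Cas9 and a single guide RNA and selected with puromycin. The methods speak of selecting stable clones and do not say whether the knockout cells were 1 clone. For RepID, chromatin came from U2OS osteosarcoma cells that stably carried the protein with a FLAG tag, and was precipitated with an antibody against FLAG. Binding and initiation thus come from different cell lines, and the bound protein is a tagged one. Each list comes from 1 library, so no spread between replicates exists, no test between WT and KO cells was made, and the intervals given for shares are exact binomial 95% intervals that cover counting error only. The lists hold no read totals, so depth is unknown, and the KO list covers 1.83 times the length of the WT list. For its genome-wide comparison the paper states a smaller number of KO peaks than the KO list holds. Scores were read only as percentiles within their own list.

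In G1 phase the origin recognition complex, of which ORC1 is a subunit, marks origins on DNA, and CDC6 and CDT1 then help it to load the MCM helicase, of which MCM2 is a subunit. Geminin, the product of GMNN, binds CDT1 and prevents loading outside G1. CDC45 joins the loaded helicase when an origin fires, and PCNA is the sliding clamp that holds DNA polymerases on the template. Genes of this group are known targets of the E2F transcription factors, which raise their expression towards S phase.

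The clearest feature of these loci lay at the gene starts. A WT nascent-strand region covered the start of 7 of the 7 genes, whereas 10.1% of positions taken every 1 kb along the genome lay in a WT region. A KO region covered the start of 3 genes, ORC1, MCM2 and CDC6, against 18.5% of positions, and lay within 2 kb of a further one, CDT1. Within 2 kb of the start, regions were thus found for 7 genes in the WT list, 4 in the KO list and 4 in the RepID list, while 18.3%, 35.6% and 2.84% of genome positions lay that close to a WT, KO or RepID region. RepID regions were near the starts of MCM2, CDT1, CDC45 and PCNA, and over the start itself at MCM2 alone, where 0.561% of positions are covered. These shares are over all positions and not over gene starts, since no gene annotation on hg19 was used, and replication origins are known to be frequent at gene starts in general.

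**Figure D1:**
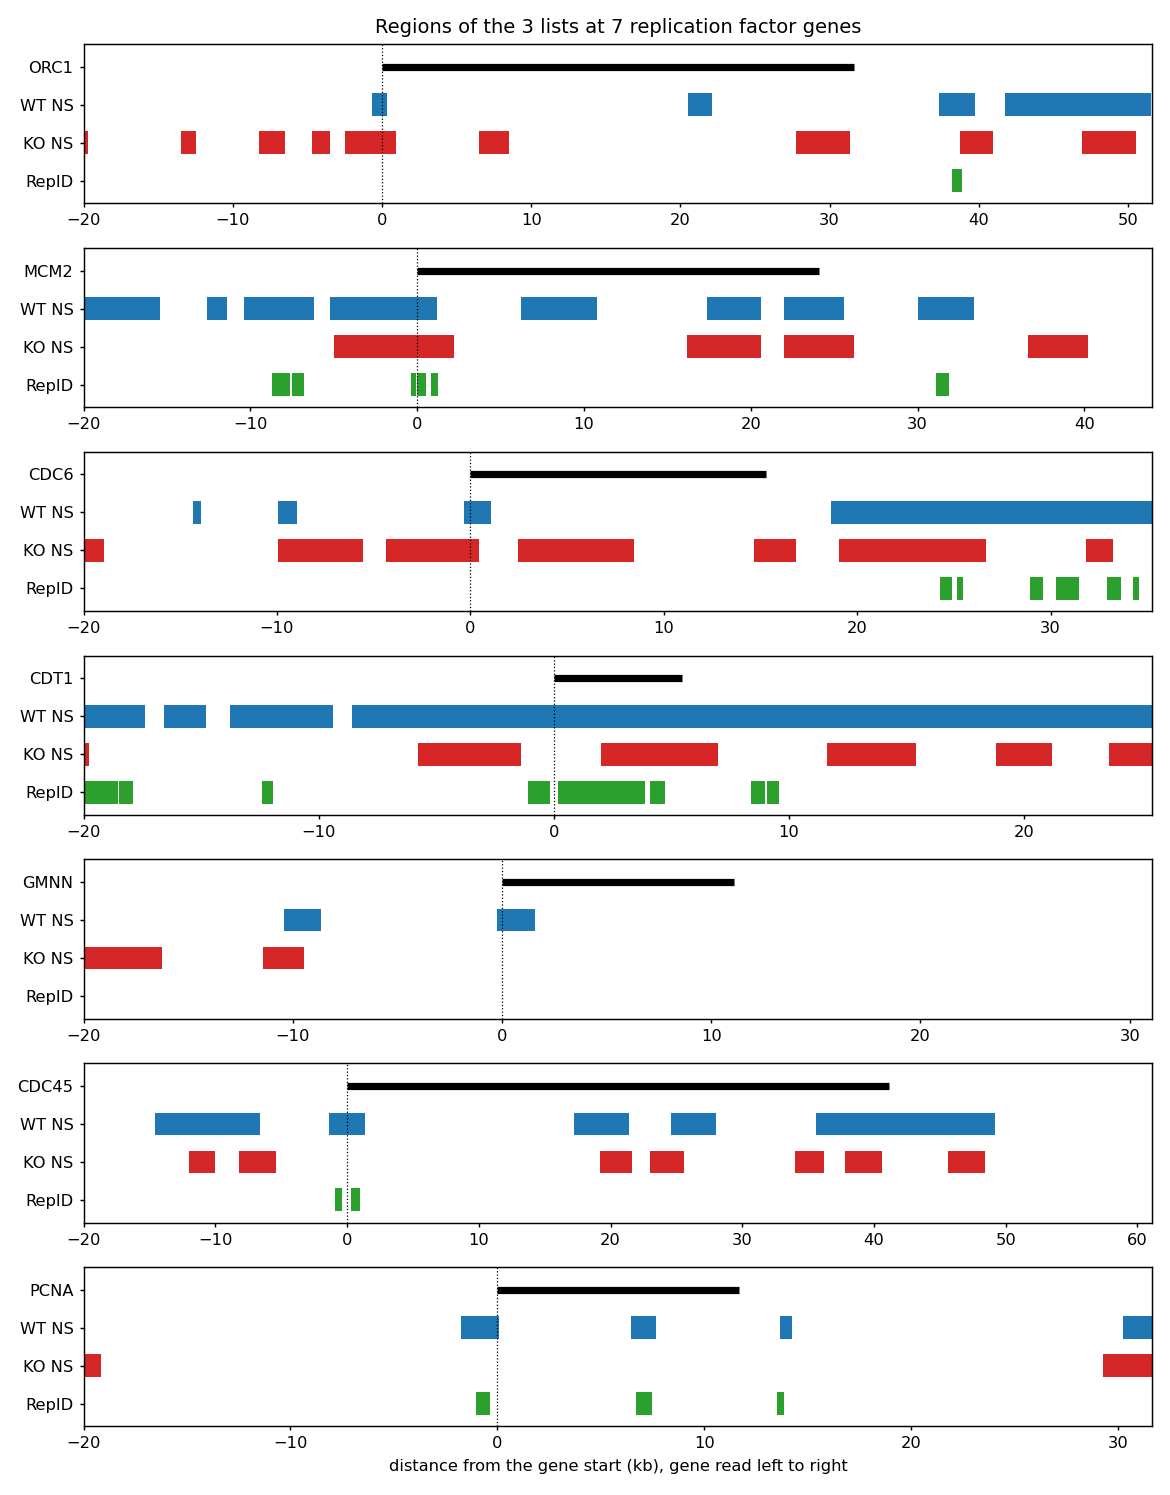
Regions of the 3 lists at each of the 7 genes, plotted by distance from the gene start in kb, with each gene (black bar) read from left to right and 20 kb on either side. Blue bars are WT nascent-strand regions, red bars KO nascent-strand regions and green bars RepID regions, cut at the edge of each window. A blue bar crosses the dotted line of the gene start in all 7 panels, a red bar in 3.

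The promoters are shown because WT regions covered all 7 gene starts and RepID regions lay near 4 of them. RefSeq promoter sequences on GRCh38.p14, from 250 bases before to 50 bases after a gene start, were found for all 7 genes. The following are those of the 4 genes with RepID near the start (for CDC45 and PCNA the first of several that RefSeq lists) and, for contrast, that of CDC6, whose start had WT and KO regions but no RepID region near it. They are written 5′ to 3′ along the gene, and capitals mark matches to the E2F sites TTTCCCGC and TTTGGCGC or to TTTGGCGG, on either strand.
MCM2 (chr3:127598161-127598460, plus strand): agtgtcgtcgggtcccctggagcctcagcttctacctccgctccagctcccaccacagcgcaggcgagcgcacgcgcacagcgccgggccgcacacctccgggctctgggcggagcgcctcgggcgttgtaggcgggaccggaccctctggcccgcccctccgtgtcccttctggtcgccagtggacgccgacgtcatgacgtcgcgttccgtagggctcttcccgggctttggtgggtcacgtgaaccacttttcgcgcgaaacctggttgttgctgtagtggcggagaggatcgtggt
CDT1 (chr16:88803539-88803838, plus strand): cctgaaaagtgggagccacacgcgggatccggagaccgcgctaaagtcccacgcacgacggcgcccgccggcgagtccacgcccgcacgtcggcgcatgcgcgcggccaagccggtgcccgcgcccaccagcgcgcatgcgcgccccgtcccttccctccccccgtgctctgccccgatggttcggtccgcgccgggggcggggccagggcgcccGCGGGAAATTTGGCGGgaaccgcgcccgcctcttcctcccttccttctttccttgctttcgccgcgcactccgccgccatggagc
CDC45 (chr22:19479670-19479969, plus strand): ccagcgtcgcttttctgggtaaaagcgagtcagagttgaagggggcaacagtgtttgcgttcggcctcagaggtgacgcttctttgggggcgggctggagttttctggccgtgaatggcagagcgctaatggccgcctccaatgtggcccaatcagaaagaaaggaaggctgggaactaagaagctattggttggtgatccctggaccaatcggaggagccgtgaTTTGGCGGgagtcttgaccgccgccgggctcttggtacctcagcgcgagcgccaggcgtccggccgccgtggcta
PCNA (chr20:5126573-5126872, minus strand): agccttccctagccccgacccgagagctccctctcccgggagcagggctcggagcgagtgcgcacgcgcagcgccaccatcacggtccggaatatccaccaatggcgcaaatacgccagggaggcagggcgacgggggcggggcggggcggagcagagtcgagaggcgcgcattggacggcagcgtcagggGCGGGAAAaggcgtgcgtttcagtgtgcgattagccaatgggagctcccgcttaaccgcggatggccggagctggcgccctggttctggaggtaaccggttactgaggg
CDC6 (chr17:40287629-40287928, plus strand): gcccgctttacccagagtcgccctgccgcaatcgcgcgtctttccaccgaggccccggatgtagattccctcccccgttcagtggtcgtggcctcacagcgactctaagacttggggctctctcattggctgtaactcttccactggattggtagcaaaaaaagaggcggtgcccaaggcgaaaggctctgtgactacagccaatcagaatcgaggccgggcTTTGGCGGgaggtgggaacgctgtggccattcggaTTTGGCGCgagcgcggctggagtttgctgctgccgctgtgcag

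TTTCCCGC or TTTGGCGC was present in the promoters of CDC6, CDT1 and PCNA and in the second of the promoters that RefSeq lists for GMNN, against 2.27% of all 35116 promoters of this length. TTTGGCGG, which was added after the sequences had been seen, was present at CDC6, CDT1 and CDC45. It was picked from these promoters, so the 0.652% of all promoters that hold it describes how common it is and is no measure of enrichment here. At CDT1 it follows the match to TTTCCCGC directly. None of these searched letters was present at ORC1 or MCM2 in these windows. Other forms of the E2F site were not searched, so these genes cannot be said to lack one. A CCAAT box, CCAAT on either strand, was present at ORC1, CDC6, CDC45 and PCNA and in the second GMNN promoter alone, against 34.6% of promoters. Runs of 3 or more G on 1 strand, 4 of them spaced by 1 to 7 bases, were present at MCM2, CDT1, GMNN and PCNA, against 25% of promoters. For each motif a gene counted if any of its listed promoters matched, whereas the shares are over single promoters. This favours genes with several promoters. The promoter of CDT1 had the highest G+C content of the printed ones, 74.3%, and those of MCM2 and PCNA had 68.3% and 68.0%, while CDC6 had 60.7% and CDC45 60%, with a median of 58.7% over all promoters. Of the genes not printed, neither with RepID near the start, ORC1 had 55.3% and the 2 GMNN promoters had 60% and 69.7%. These sequences describe the current RefSeq starts and were not placed on the hg19 coordinates of the regions.

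ORC1, on the minus strand of chromosome 1 (hg19 52838501 to 52870131), encodes the largest subunit of the origin recognition complex. Its start was covered by a WT region of 1000 bp, from 669 bp upstream to 330 bp downstream (52869801 to 52870800), with a score at percentile 27.7 of the WT list. A KO region of 3400 bp (52869201 to 52872600, percentile 65.4 of the KO list) covered the whole of it. The nearest RepID region lay 38.2 kb away. The start region of ORC1 thus scored below the median of its list, had no RepID region near it, and was found in both nascent-strand lists.

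Beyond its start, ORC1 held a WT region inside the gene (52848001 to 52849600, percentile 18.7) with no KO region over it, and KO regions inside the gene at 52838801 to 52842400 and 52861601 to 52863600 with no WT region over them. Upstream of the start, towards PRPF38A, the KO list held 4 further regions and the WT list none. Their scores lay at percentiles 9.98, 26.8, 4.87 and 71.0 of the KO list. Downstream, towards CC2D1B, WT regions at 52818601 to 52828400 (percentile 95.1) and 52830401 to 52832800 (percentile 76.1) were each overlapped by a KO region, over 36.7% and 41.7% of their length. The single RepID region of this locus (52831277 to 52831907, percentile 39.7) lay inside the second of these.

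CDC6, the ATPase that joins the origin recognition complex before helicase loading, lies on the plus strand of chromosome 17 (38444146 to 38459413). Its start was covered by a WT region from 345 bp upstream to 1054 bp downstream (38443801 to 38445200, percentile 45.9). A KO region of 4800 bp, from 4345 bp upstream to 454 bp downstream (38439801 to 38444600, percentile 86.4), covered 57.1% of it, so that both lists had a region at the start but the KO region lay mostly upstream of the WT one. The nearest RepID region was 24.3 kb away. Inside the gene the KO list held a region of 6000 bp (38446601 to 38452600, percentile 88.0) where the WT list held none, and a further one over the gene end (38458801 to 38461000, percentile 49.5), also without a WT region.

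All 6 RepID regions of the CDC6 locus lay downstream, on the side of RARA, within a single WT region of 21600 bp (38462801 to 38484400, percentile 98.5). The strongest of them ran from 38474436 to 38475635, at percentile 90.2 of the RepID list. KO regions at 38463201 to 38470800 (percentile 94.8) and 38476001 to 38477400 (percentile 6.46) covered 41.7% of this WT region. They overlapped 3 of the 6 RepID regions, and the strongest lay 365 bp from the nearest of them. The pair of WT regions upstream of CDC6 had low scores, at percentiles 2.95 and 4.36, and the second of them was covered by a KO region (38434201 to 38438600, percentile 70.4). A KO region further upstream (38422201 to 38425200, percentile 34.2) overlapped no WT region.

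CDT1, the licensing factor that geminin inhibits, stood apart from the other genes in the WT and RepID lists. The gene spans only 5481 bp on the plus strand of chromosome 16 (88870186 to 88875666). It lay wholly inside the WT region with rank 1 in both score and width among all 78859 WT regions, from 88861601 to 89011400, a stretch of 149800 bp with a score of 55239. Further upstream, the WT region from 88749401 to 88852800 ranked 6 by score, and 10 KO regions covered 41.0% of it. Between this pair lay WT regions of 1800 bp (percentile 28.4) and 4400 bp (percentile 96.7), neither of which was overlapped by a KO region.

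RepID covered 79.3% of the CDT1 gene. The main region, from 199 bp to 3898 bp downstream of the start (88870385 to 88874084), spanned 3700 bp and ranked 6 among the 24222 RepID regions. RepID regions on either side of it ran from 1077 to 140 bp upstream of the start (percentile 83.3) and from 4115 to 4759 bp downstream (percentile 83.5). The locus held 8 RepID regions, the most of the 7 genes, and all 8 overlapped WT regions. Towards PIEZO1, upstream, the strongest was at 88850019 to 88851657 (percentile 94.8), next to one at 88851701 to 88852298 (percentile 67.1), and another lay at 88857768 to 88858266 (percentile 37.6). Downstream of the gene RepID regions lay at 88878579 to 88879167 (percentile 64.3) and 88879273 to 88879794 (percentile 29.7).

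KO regions were present at CDT1 but in pieces. Over the 149800 bp of the WT region the KO list held 21 regions that covered 54.1% of it, and the RepID list 13 regions that covered 8.04%. Around the gene start, KO regions ended 1386 bp upstream (88864401 to 88868800, percentile 91.7) and resumed 2015 bp downstream (88872201 to 88877200, percentile 74.2). The start itself and the first part of the gene lay between them, and the second KO region covered 50.9% of the main RepID region. Further KO regions lay upstream at 88842401 to 88850400 (percentile 94.8) and downstream at 88881801 to 88885600 (percentile 64.1), 88889001 to 88891400 (percentile 25.9) and 88893801 to 88898600 (percentile 76.2), all inside WT regions. By the criterion of 1 bp the start region of CDT1 counted as overlapped in KO cells, while no KO region covered the start.

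MCM2, a subunit of the replicative helicase, lies on the plus strand of chromosome 3 (127317200 to 127341278). Its start was covered in all 3 lists. The WT region ran from 5199 bp upstream to 1200 bp downstream (127312001 to 127318400, percentile 77.4), and a KO region (127312201 to 127319400, percentile 88.5) covered 96.9% of it. RepID regions lay at 127316825 to 127317135 (percentile 12.1), at 127317174 to 127317744 (percentile 66.2, over the start) and at 127318021 to 127318466 (percentile 37.8). MCM2 was the single gene of the 7 whose start was covered by WT, KO and RepID regions together.

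The other WT regions of the MCM2 locus differed from each other in their overlap with KO regions. A WT region upstream (127306801 to 127311000, percentile 82.3) held RepID regions at 127308503 to 127309564 (percentile 78.7) and 127309684 to 127310411 (percentile 55.8). No KO region overlapped this WT region, but the KO region over the gene start lay only 1200 bp from it. A WT region downstream, towards PODXL2 (127347201 to 127350600, percentile 84.0), held a RepID region at 127348297 to 127349103 (percentile 67.9). It was not overlapped by a KO region either, and the nearest lay 3200 bp away. By contrast, WT regions inside the gene (127334601 to 127337800) and over its end (127339201 to 127342800), both without RepID within 5 kb, were covered by KO regions in full. A further WT region inside the gene (127323401 to 127328000, percentile 75.4), not bound by RepID, had none. Upstream, towards TPRA1, the WT list held an unbound region of 16600 bp (127285201 to 127301800, percentile 97.4), of which KO regions covered 25.3%, and one of 1200 bp with a score of 51, under the WT median of 122, and with no KO region over it. The remaining KO region lay downstream (127353801 to 127357400, percentile 57.3) and overlapped no WT region.

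GMNN lies on the plus strand of chromosome 6 (24775242 to 24786327) and was the gene with the fewest regions. Its start was covered by a WT region from 241 bp upstream to 1558 bp downstream (24775001 to 24776800, percentile 44.4). No KO region covered any part of the gene, and the nearest to the start lay 9.44 kb upstream. The nearest RepID region was 54.5 kb from the gene. The start of GMNN thus had no KO region although RepID was not found near it. The second WT region of the locus, upstream (24764801 to 24766600, percentile 56.0), was overlapped by a KO region (24763801 to 24765800, percentile 23.5) over 55.6% of its length. The other KO region lay further upstream (24753801 to 24759000, percentile 75.9) and overlapped no WT region.

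CDC45 lies on the plus strand of chromosome 22 (19467000 to 19508135). A WT region from 1399 bp upstream to 1400 bp downstream covered its start (19465601 to 19468400, percentile 71.9) and held RepID regions on either side of it, at 19466089 to 19466588 (percentile 28.8) and 19467267 to 19467999 (percentile 57.0). No KO region overlapped it, and the nearest ended 5.40 kb upstream of the start. The other 4 WT regions of the locus, none of them within 2 kb of a RepID region, were each overlapped by a KO region, over 29.4% to 52.4% of their length. Within this locus the RepID-bound WT region was therefore the one without a KO region. Chromosome 22 differed from the others in the KO list: KO regions covered 0.631 times the length covered by WT regions, against 1.22 to 2.74 times on the other 6 chromosomes. The part of this difference in the result at CDC45 was not tested.

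PCNA lies on the minus strand of chromosome 20 (5095599 to 5107268). The WT region over its start ran from 1732 bp upstream to 67 bp downstream (5107201 to 5109000, percentile 64.6) and held a RepID region from 1037 to 358 bp upstream (5107626 to 5108305, percentile 71.3). Inside the gene a WT region from 6468 to 7667 bp downstream of the start (5099601 to 5100800, percentile 17.1) held a RepID region from 6689 to 7494 bp (5099774 to 5100579, percentile 55.7). RefSeq lists a second PCNA promoter, which on GRCh38 starts 6664 bp downstream of the first, in a gene model of the same 11670 bp. Past the gene end, on the side of TMEM230, a WT region of 600 bp (5093001 to 5093600, percentile 19.5) overlapped the third RepID region (5093404 to 5093749, percentile 16.3).

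None of these 3 RepID-bound WT regions at PCNA was overlapped by a KO region, and the gaps to the nearest one were 17.4, 21.6 and 15.0 kb. The KO list held just 2 regions at this locus, both close to 20 kb from the gene, at 5074401 to 5078000 (percentile 69.7) and 5126401 to 5129200 (percentile 42.0). The first of them covered the remaining WT region of the locus (5074801 to 5077000, percentile 36.6), which had no RepID region within 2 kb.

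**Figure D2:**
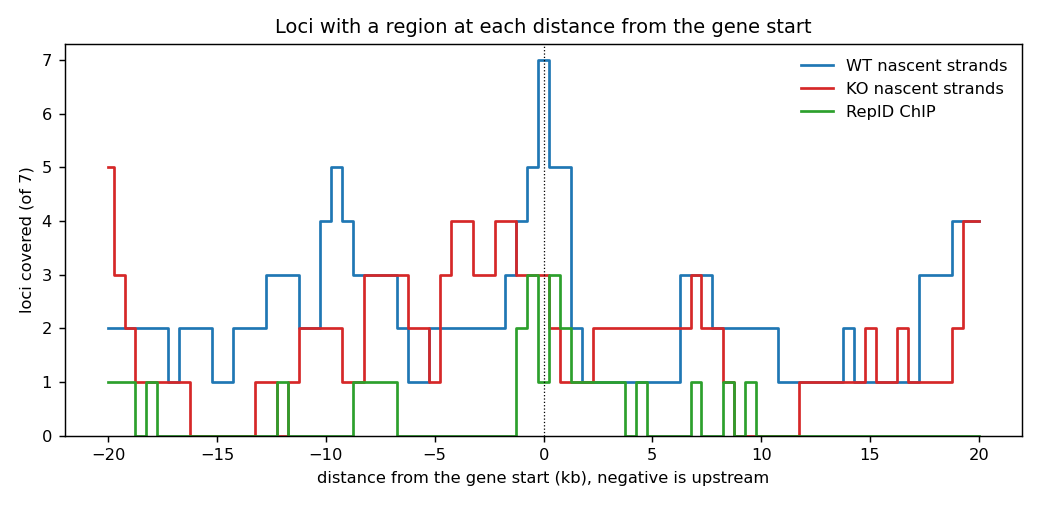
Number of the 7 loci covered by a WT (blue), KO (red) or RepID (green) region at each distance from the gene start, read every 500 bp, with negative distances upstream. The WT line reaches 7 at the start and is at 5 at 500 bp on either side, while the KO line stands at 3 at the start.

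Read by distance from the start, WT regions covered 7 loci at the start, 4 at 1000 bp upstream and 5 at 1000 bp downstream, and 2 at 2000 bp upstream and 1 at 2000 bp downstream. KO regions covered 4 loci at 2000 bp and at 1500 bp upstream, 3 at the start and 1 from 1000 to 2000 bp downstream. RepID regions covered 3 loci at 500 bp on either side and 1 at the start. WT regions were thus most frequent at the starts, with 5 loci also covered at 9500 bp upstream, whereas KO regions near the starts lay more on the upstream side. At the gene ends, WT regions covered 3 of 7 and KO regions 3 of 7, both a larger share than the 10.1% and 18.5% of positions. RepID regions covered none, where 0.561% of positions are covered. KO regions thus covered as many gene ends as starts, and their line was highest, at 5 loci, 20 kb upstream of the start. The genes as listed were shorter than in RefSeq at ORC1 (31631 against 36675 bp) and CDC6 (15268 against 16779 bp). Which end differs was not looked up.

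The WT regions over the starts also differed in score. They lay above the median of the WT list at CDT1, MCM2, CDC45 and PCNA, the genes with RepID near the start, and below it at ORC1, CDC6 and GMNN, which had none. In the whole list RepID-bound WT regions had a median score of 298 and the others one of 105. Over the loci, 20 of 31 WT regions, 21 of 37 KO regions and 16 of 26 RepID regions lay above the median score of their own list. The median percentiles were 74.4, 57.3 and 56.4. The widest range in the WT list was at CDC6, from percentile 2.95 to 98.5.

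**Figure D3:**
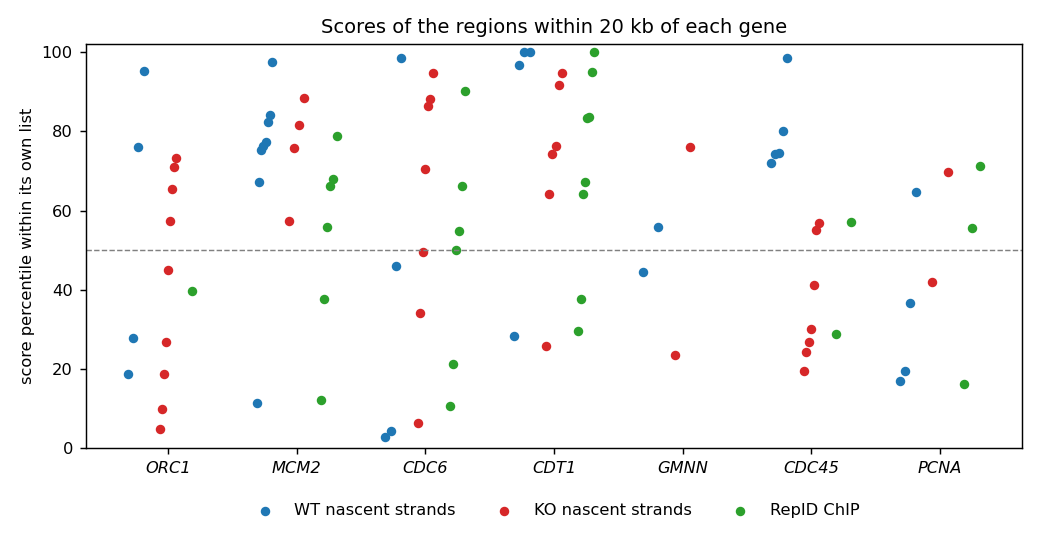
Score percentile, within its own list, of every WT (blue), KO (red) and RepID (green) region within 20 kb of each gene, with a dashed line at the median of a list. The CDT1 locus holds the highest WT and RepID scores, and at CDC45 all 5 WT regions lie above the median while 5 of the 7 KO regions lie below it.

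RepID lay within 2 kb of 13 of the 31 WT regions (41.9%, 24.5 to 60.9%), against 18.7% of all WT regions. All 26 RepID regions overlapped a WT region, as did 87.7% of all RepID regions, of which 91.1% lay within 2 kb of one. A KO region was within 2 kb of 16 of these 26 (61.5%, 40.6 to 79.8%), against 51.8% of all RepID regions. A KO region overlapped 10 of the 26 (38.5%, 20.2 to 59.4%), against 27.9% of all RepID regions. Of the 37 KO regions, 25 (67.6%, 50.2 to 82.0%) were overlapped by a WT region, against 31.0% in the whole KO list. WT regions covered from 7.05% (GMNN) to 94.3% (CDT1) of the gene with 20 kb on either side. The mean over 50-kb tiles of the genome was 9.84%. The part of WT cover in this share was not tested. CDT1, PCNA and MCM2 had 4, 3 and 3 RepID-bound WT regions, ORC1, CDC6 and CDC45 had 1 each, and GMNN had none.

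A KO region overlapped 18 of the 31 WT regions of the loci (58.1%, 39.1 to 75.5%), close to the 60.6% of the whole list. Of the 13 RepID-bound WT regions 5 were overlapped (38.5%, 13.9 to 68.4%), against 56.0% of all bound WT regions. Of the 18 others 13 were overlapped (72.2%, 46.5 to 90.3%), against 61.7% of all unbound ones. The intervals of bound and unbound regions overlap, each holds the value of its whole list, and neighbouring regions are not independent. The 8 bound regions without a KO region were 3 at PCNA, 2 at MCM2, 2 at CDT1 and 1 at CDC45. With at least 50% of a WT region covered as the criterion, 10 of 31 were overlapped (32.3%, 16.7 to 51.4%), against 45.5% of the whole list. This held for 2 of 13 bound regions (15.4%, 1.92 to 45.4%), against 29.4% of all bound ones, and for 8 of 18 unbound regions (44.4%, 21.5 to 69.2%), against 49.2% of all unbound ones. Without PCNA, 5 of 10 bound and 12 of 17 unbound regions were overlapped. With regions of a list less than 1 kb apart merged, 18 of 29 WT regions were overlapped and 11 were bound. Each of the 2 CDT1 regions without a KO region then joined a far larger WT region that KO regions overlapped. The shares over the whole merged lists were not computed, so these counts cannot be set beside those of the unmerged lists.

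Over the whole list, overlap with KO regions was more frequent at high WT scores than at low ones, so the whole list was read at the scores of the start regions. Bound WT regions between percentiles 70 and 80, where the start of CDC45 lies, were overlapped in 54.7% of cases, and those between 60 and 70, where PCNA lies, in 47.0%. Unbound WT regions between 40 and 50, where GMNN and CDC6 lie, were overlapped in 60.8%. Each of these regions therefore belongs to a class in which both outcomes are common.

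**Figure D4:**
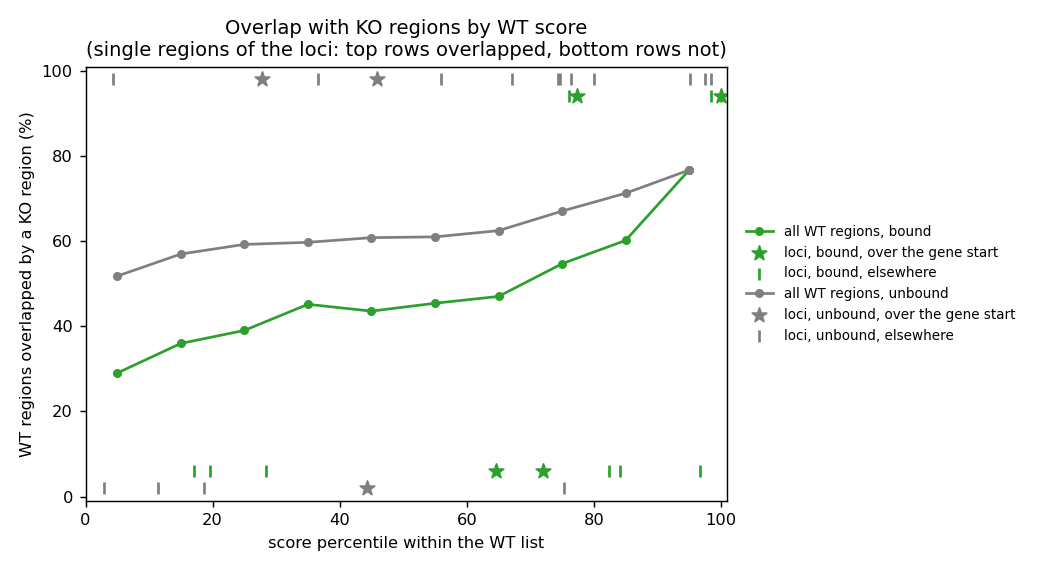
Share of WT regions overlapped by a KO region, by score percentile within the WT list, for all RepID-bound (green line) and unbound (grey line) WT regions in groups of 10 percentiles. Symbols are single WT regions of the 7 loci, in the top rows if overlapped by a KO region and in the bottom rows if not, with stars for regions over a gene start; 3 of the 7 stars, those of PCNA, CDC45 and GMNN, lie at the bottom.

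The total length covered differed in direction between loci. Taken over each gene and 20 kb on either side, WT regions covered 20.7% at ORC1, 48.7% at MCM2, 35.1% at CDC6, 94.3% at CDT1, 7.05% at GMNN, 39.4% at CDC45 and 9.68% at PCNA. KO regions covered 26.7%, 30.3%, 49.7%, 38.9%, 11.3%, 21.7% and 6.33% of the same windows. KO cover was thus lower than WT cover at the 4 genes with RepID near the start, with ratios of 0.622 at MCM2, 0.412 at CDT1, 0.550 at CDC45 and 0.654 at PCNA, and higher at the 3 without, with 1.29 at ORC1, 1.41 at CDC6 and 1.60 at GMNN. This grouping is by RepID near the start and not by RepID in the window that was measured. RepID regions covered 6.93% of the CDC6 window and 0.881% of the ORC1 window, and GMNN had none. They covered 6.13% at MCM2, 19.7% at CDT1, 1.52% at CDC45 and 3.55% at PCNA. CDC6 thus had more RepID cover than MCM2, CDC45 and PCNA. Over 61881 tiles of 50 kb along the genome the mean cover was 9.84% for WT and 18% for KO regions.

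Such a ratio falls as WT cover rises, so it is set beside those of tiles of like cover, although the windows, of 45481 to 81136 bp, are not of the same length as a tile. Tiles with RepID and a WT cover of 40 to 60%, as at MCM2, had a median ratio of 0.565 (quartiles 0.329 and 0.863), and those above 60%, as at CDT1, one of 0.337 (0.164 and 0.570), so both loci lay within the usual range. At CDC45 and CDC6 the class is 20 to 40%, with a median of 0.912 and quartiles of 0.558 and 1.35. CDC45 lay just below and CDC6 just above these quartiles, and ORC1 between them. With a WT cover of 39.4%, CDC45 stood at the upper edge of this class. Its ratio of 0.550 lay between the quartiles of the 40 to 60% class. PCNA, in the class from 5 to 10% with RepID (median 2.47, quartiles 1.36 and 3.80), and GMNN, in that class without RepID (median 3.50, quartiles 1.91 and 5.25), both lay below the lower quartile.

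**Figure D5:**
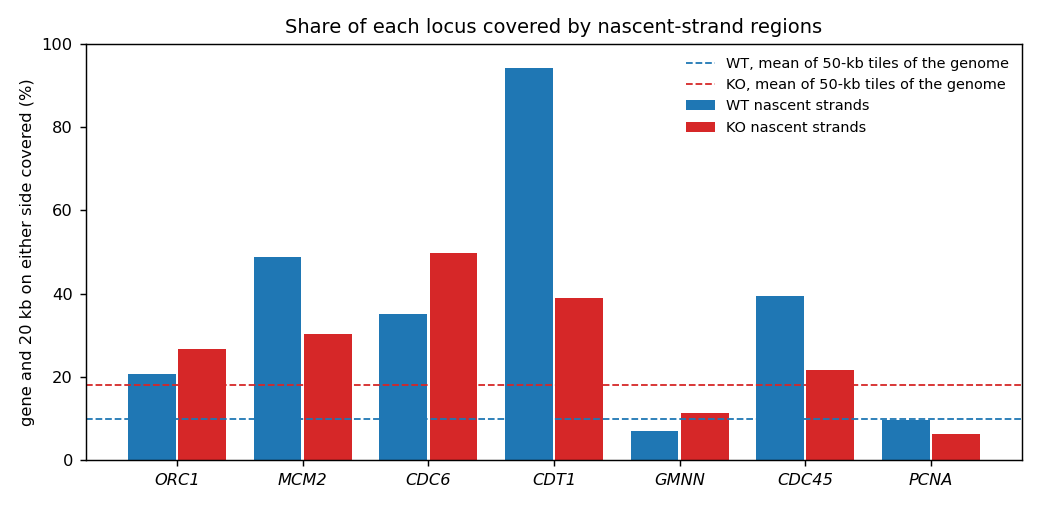
Percentage of each locus, the gene with 20 kb on either side, covered by WT (blue) and KO (red) nascent-strand regions, with dashed lines at the mean of 50-kb tiles of the genome. WT cover exceeds KO cover at MCM2, CDT1, CDC45 and PCNA and is the lower of the pair at ORC1, CDC6 and GMNN.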

How the data were processed

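The 3 deposited lists give regions on hg19, per the labels, which name MACS and SICER as tools without saying which made which list. The authors called RepID regions with MACS against genomic input of U2OS cells and, per the study's methods, used SICER for nascent strands of U2OS cells; the programme for HCT116 cells is not given in the sources used here. The HCT116 genomic control was not analysed here. The meaning of the deposited score is not stated for any list. All nascent-strand regions lie on a grid of 200 bp. The other deposited values are starts and ends, given here as positions counted from 1.

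Gene positions are those of the list of 7 genes, with strands from RefSeq, and neighbouring genes are named by their order on GRCh38. The genes, lists and comparisons were chosen with earlier results of these data known. All regions within 20 kb of the 7 genes entered the counts, and the text gives positions for most of them. WT regions counted as bound if a RepID region lay no more than 2 kb off, and as overlapped at 1 bp or more. Percentiles are middle ranks within a list. Interval functions were tested on simulated data against bedtools. Python 3.11.15, pandas 2.3.3, numpy 2.4.6 and SciPy 1.17.1 were used. Other genes of the pathway were not looked up, for want of an hg19 annotation. Alternatives for margin, distance, overlap and score were computed.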

Additional observations from a re-analysis of the deposited data

How the results depend on the processing

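Of 52 alternatives, 49 stayed within the 95% counting interval of the share or, for counts of loci, within 1.5 times, and 3 moved. For the overlapped share this interval runs from 39.1 to 75.5%, so staying within it does not show that a value is unchanged. With at least 50% of the WT region covered, 32.3% of the WT regions of the loci were overlapped in KO cells, against 45.5% of the whole list. With WT scores at or above the median, 4 genes had a WT region near the start. The share of genome positions near such WT regions was not computed. With the start itself covered, 1 gene had a RepID region, against 0.561% of positions. Leaving out each locus in turn gave overlapped shares from 53.8% to 63.0%, bound shares from 33.3% to 46.2%, and 100% of RepID regions near a WT region throughout. With the KO list limited to as many top-scoring regions as the WT list holds, 45.2% of the WT regions of the loci were overlapped. The share of the whole WT list overlapped by this shorter KO list was not computed, so 45.2% cannot be called low or usual. With the shorter list 4 genes had a KO region within 2 kb of the start, a setting chosen after seeing the data. The share of genome positions that close to the shorter list was not computed either, so this count cannot be called high or usual. No paired analysis was possible because each list comes from 1 library. Since read totals are unknown, a region in the WT list alone cannot be told apart from one missed in the KO library. Each of the 3 values that moved came from a stricter criterion. The one on WT scores removed regions from the list. The 50% criterion was still read over all 31 WT regions of the loci.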
